A study of Schizosaccharomyces pombe with 6 samples.

Results

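The pcs2 and hsr1 locus is a 33 kb stretch of fission yeast chromosome I, described here for Rad52 in a rad3-deleted and a rad3-carrying strain. Its members are the genes pcs2 (SPAC3H1.10) and hsr1 (SPAC3H1.11), 2 of the 4124 protein-coding genes measured. Probes were taken by position, with centres from 1938119 to 1970729, which gave 117 probes of the 42641 nuclear probes. Of these, 111 were used and 6 were left out because the scanner software marked the spot as an outlier on at least 1 array. The locus was selected on the ratio itself, because a 9 kb run of 1 kb bins across it (probe centres 1950182 to 1958786) had a higher Rad52 ratio in the rad3-deleted arrays. All values of the ratio at the locus, and of the 2 channels that form it, are therefore given as a description, with no test. Where a fit over the whole table calls bins or genes of the locus, the choice fixes those calls and nothing is read from them.

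Rad52 was mapped by chromatin immunoprecipitation on 44K two-colour tiling arrays of Schizosaccharomyces pombe. The strains were rad3-deleted cdc25-22 (3 arrays, n = 3) and cdc25-22 (3 arrays, n = 3), so both carried the temperature-sensitive cell cycle allele cdc25-22 and differed in rad3. Cultures of both strains were blocked at 36.5 °C for 4 h, then shifted to 25 °C and treated with 6 mM hydroxyurea. The immunoprecipitate was green and the input red on all 6 arrays, and no array was a control immunoprecipitate, so enrichment specific to Rad52 and unspecific enrichment cannot be told apart within a strain. The labels do not say whether replicates came from separate cultures, so the spread between them may be technical.

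The names of 4 of the 6 scanner files went against the deposited value table and against rad3 itself. The files listed for replicates 1 and 2 of each strain equalled the table's columns for the other strain at all 42641 probes, within 0.001 log2. Of 33 probes in rad3, the files placed as rad3-deleted by the table had 9, 10 and 9 that were dim in both channels, and those placed as cdc25-22 had 0, 0 and 0. With the files as listed, the numbers were 0, 0 and 9 for rad3-deleted and 9, 10 and 0 for cdc25-22. All values below place the files by the table, and their direction holds only under that placement. For replicate 3 the listed names and the rad3 probes go together, and the values of that slide are given on their own where they matter. The file of cdc25-22 replicate 3 equalled no column of the table, and the table's column for that sample equalled no file. That scanner file is used as listed.

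Rad3 is the fission yeast counterpart of the checkpoint kinase ATR, which holds back late replication origins and protects stalled forks when nucleotides run short. Rad52 loads the recombinase onto single-stranded DNA and gathers at broken or stalled forks. Hydroxyurea starves forks by inhibiting ribonucleotide reductase, and fission yeast origins lie mostly in long A+T-rich stretches between genes. The gene pcs2 is annotated as a phytochelatin synthetase, an enzyme that makes metal-binding peptides from glutathione. The gene hsr1 encodes a DNA-binding transcription factor known for its part in the response to hydrogen peroxide.

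Both genes lie on the plus strand of chromosome I, and both read toward the right. In the reference ASM294v3 the pcs2 gene covers 1949678 to 1951508 with its coding part at 1949756 to 1951000. The hsr1 gene covers 1957473 to 1961546 with its coding part at 1959311 to 1961059. Between the pcs2 stop codon and the hsr1 start codon lie 8310 bp with no protein-coding sequence. This gap holds the 508 bp 3′ untranslated part of pcs2, 5964 bp between the annotated mRNAs, and the 1838 bp 5′ untranslated part of hsr1. It also holds 9 annotated long noncoding RNA genes, 4 on the plus and 5 on the minus strand. The array headers name an older genome version. Probe positions and the reference coincided at a shift of 0 bp in both 50 kb segments of the locus, where the standard deviation of probe G+C was 3.05% and 2.84%, against 7.74% and 7.90% at the median of the other shifts tried.

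The sequences below mark the landmarks of the Rad52 profile, all on the plus strand of ASM294v3 chromosome I. The first pair shows where the profile falls away on either side, with the stop codon of pcs2 (chrI:1950941-1951000) and the start codon of hsr1 (chrI:1959311-1959370) in capitals.
pcs2 coding end: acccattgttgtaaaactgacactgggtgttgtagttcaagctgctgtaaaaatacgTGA
hsr1 coding start: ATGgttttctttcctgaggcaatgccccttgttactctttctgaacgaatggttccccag
The second pair shows the 300 bases around the summit in rad3-deleted arrays (chrI:1954855-1955154) and the 300 bases around the summit of the unmatched table column of cdc25-22 replicate 3 (chrI:1953479-1953778). Capitals mark runs of 7 or more of the same base, A or T.
Summit in rad3-deleted: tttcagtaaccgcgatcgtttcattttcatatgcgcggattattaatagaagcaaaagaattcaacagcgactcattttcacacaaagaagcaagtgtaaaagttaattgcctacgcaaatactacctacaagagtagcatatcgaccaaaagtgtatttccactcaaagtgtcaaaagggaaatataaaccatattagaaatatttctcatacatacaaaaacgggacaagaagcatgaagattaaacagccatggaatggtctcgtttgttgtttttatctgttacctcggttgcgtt
Summit in the unmatched column: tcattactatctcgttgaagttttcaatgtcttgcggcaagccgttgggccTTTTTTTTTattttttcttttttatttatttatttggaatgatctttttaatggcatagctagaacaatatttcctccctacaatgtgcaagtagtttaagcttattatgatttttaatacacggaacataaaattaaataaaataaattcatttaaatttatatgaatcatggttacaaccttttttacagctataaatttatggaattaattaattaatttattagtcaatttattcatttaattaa
The first stretch is 64.3% A+T and holds 0 such runs, and the second is 76.3% A+T and holds 1. The run AAAAAAA, searched on both strands as A or T with overlapping matches merged, occurs in 29.2% of all 300 bp windows of the genome. It was chosen after the profile had been seen, and its presence or absence in a window says nothing about a factor.

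The Rad52 ratio was high across the noncoding gap in rad3-deleted arrays and near the array median there in cdc25-22 arrays. Each ratio is immunoprecipitate over input on the log2 scale, with the median probe of each array at 0. Over the 29 probes of the gap the mean ratio was 1.55, 1.78 and 2.27 in rad3-deleted replicates 1, 2 and 3, against 0.08, 0.19 and -0.06 in cdc25-22 replicates 1, 2 and 3. Every rad3-deleted array stood far above every cdc25-22 array, and the groups did not overlap. The means were 1.87 ± 0.37 in rad3-deleted and 0.07 ± 0.13 in cdc25-22 (SD, n = 3 each), a difference of 1.80 or 3.47-fold. On slides 1, 2 and 3, each of which held 1 array per strain, the difference was 1.47, 1.59 and 2.33. Of the 29 probes, 28 were higher in rad3-deleted without overlap between the strains, against a background of 14.3% of the 40086 probes used.

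**Figure D1:**
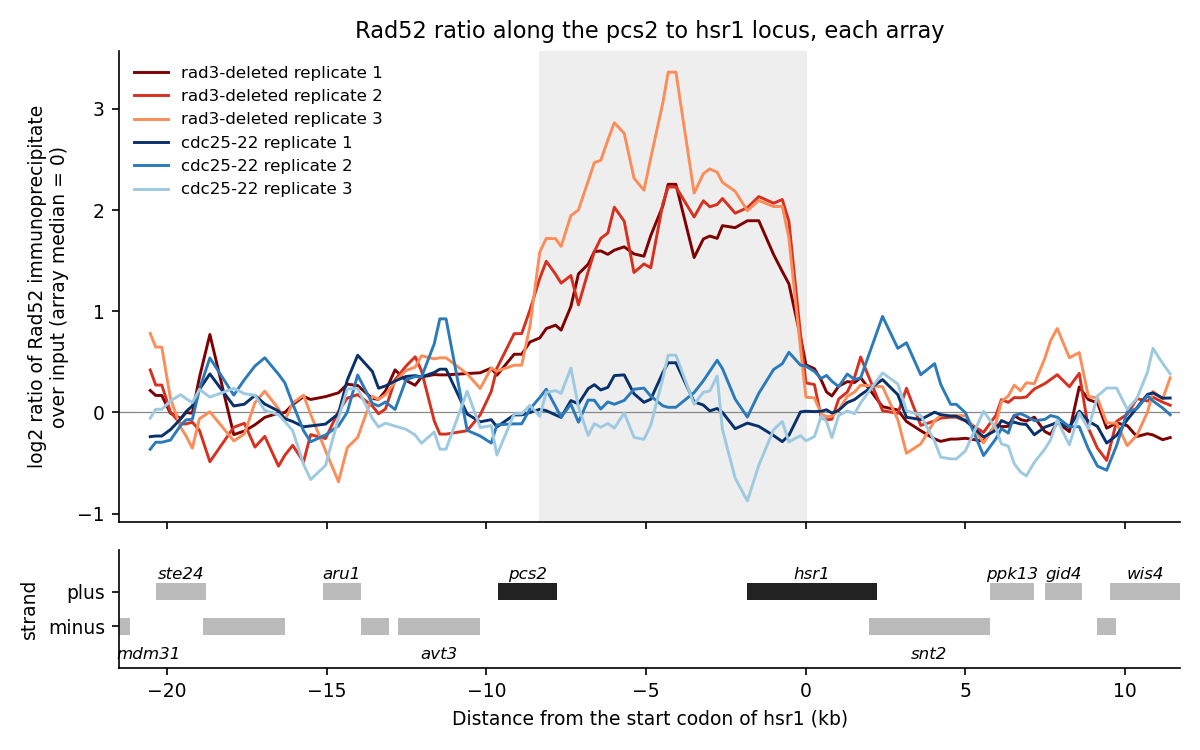
Running mean (probes within 500 bp) of the log2 ratio of Rad52 immunoprecipitate over input, against distance from the hsr1 start codon in kb, 1 line per array, with protein-coding genes by strand below and the gap between pcs2 and hsr1 coding parts shaded. The rad3-deleted lines reach 2.25, 2.23 and 3.36 inside the gap and drop at the hsr1 start codon, while the cdc25-22 lines have their highest points of 0.57, 0.95 and 0.63 outside the gap.

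The profile in rad3-deleted arrays was an uneven plateau whose highest point, taken as the summit, lay at the same place on all 3 arrays. Only the highest point of each profile was taken, and lower maxima were not listed. With a running mean over probes within 500 bp, the summit lay at probe centre 1955005, a value shared with the next probe because both average the same probes. The height there was 2.25, 2.23 and 3.36 in rad3-deleted replicates 1, 2 and 3, and 2.61 in the mean of the 3. The summit stood 4005 bp after the pcs2 stop codon and 4306 bp before the hsr1 start codon, near the middle of the gap and inside the noncoding gene SPNCRNA.781. In cdc25-22 replicates 1, 2 and 3 the highest running means of the whole window were 0.57, 0.95 and 0.63, at 1945280, 1961720 and 1970190. These 3 places differ from each other and all lie outside the gap.

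The plateau was 6.59, 6.29 and 6.83 kb wide at 0.5 of its height in rad3-deleted replicates 1, 2 and 3. Its right edge at that level was the probe at 1958786 on all 3 arrays, 525 bp before the hsr1 start codon. Its left edge lay at 1952195, 1952499 and 1951958, which is 1195, 1499 and 958 bp past the pcs2 stop codon. At a fixed level of 0.5 log2 the mean profile ran from 1950182 to 1959150, a span of 8.97 kb that ended 161 bp before the hsr1 start codon. The left side was thus a slope that reached into pcs2, and the right side a step. With a narrower running mean of 250 bp, the span at 0.5 of the height around its summit was 1.001 kb. A running mean needed at least 2 probes, and the median probe spacing was 271 bp. That span can therefore end at a probe without a value, and it does not show a dip in the plateau.

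The step on the hsr1 side fell within 3 neighbouring probes. At the probe 525 bp before the start codon the ratio was 1.18, 1.90 and 1.96 in rad3-deleted, against -0.05, 0.50 and 0.28 in cdc25-22. At the probe 161 bp before it, the ratio was 0.90, 1.24 and 0.79 in rad3-deleted and -0.04, 0.93 and -0.90 in cdc25-22. The strains did not overlap at the first of these probes and overlapped at the second. At the probe centred 10 bp inside the coding part, the ratio was 0.73, -0.14 and 0.13 in rad3-deleted and -0.08, 0.13 and -0.06 in cdc25-22, and the strains overlapped.

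On the pcs2 side the difference grew over the 4 probes of the coding part. The probe at 1950182 differed by 0.36, that at 1950416 by 0.53, that at 1950676 by 1.08 and that at 1950982, 18 bp before the end of the stop codon, by 1.31. The gain of the Rad52 ratio in rad3-deleted arrays was thus larger over the 3′ part of pcs2 than over its 5′ part. Over the whole coding part the ratio was 0.70, 1.01 and 0.86 in rad3-deleted, against 0.00, 0.03 and 0.07 in cdc25-22, with no overlap and a difference of 0.82. In the 2 kb before the pcs2 gene (6 probes) the ratio was 0.34, -0.02 and 0.38 in rad3-deleted and 0.11, 0.31 and -0.16 in cdc25-22, and the strains overlapped.

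As a gene, pcs2 averaged 0.64, 1.08 and 1.05 over 6 probes in rad3-deleted arrays, against -0.03, 0.03 and 0.00 in cdc25-22 arrays. The difference was 0.93, or 1.90-fold, and the groups did not overlap. The gene hsr1 averaged 0.78, 0.85 and 0.78 over 15 probes in rad3-deleted, against -0.03, 0.37 and -0.17 in cdc25-22, a difference of 0.75 or 1.68-fold without overlap. That mean joins 2 unlike parts of hsr1. Over the 6 probes of its 5′ untranslated part the ratio was 1.499, 1.94 and 1.84 in rad3-deleted and -0.17, 0.42 and -0.38 in cdc25-22, a difference of 1.80. Over the 9 probes of its coding part it was 0.31, 0.13 and 0.08 in rad3-deleted and 0.06, 0.33 and -0.03 in cdc25-22, a difference of 0.05 with overlapping groups. On slide 3 alone, where the listed names and the rad3 probes go together, pcs2 differed by 1.05 and hsr1 by 0.95. None of the 9 hsr1 coding probes was higher in rad3-deleted without overlap (0 of 9), and 3 of the 4 pcs2 coding probes were. The share over all 40086 probes used was 14.3%, and both counts are too small to be read beside it.

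**Figure D2:**
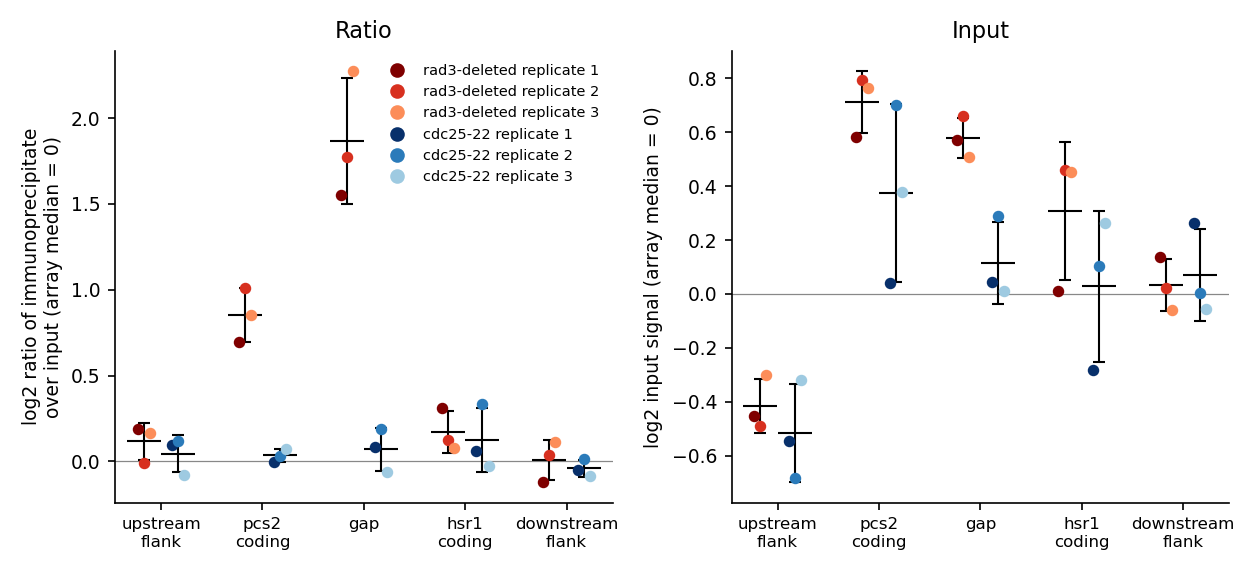
Mean log2 ratio (left) and mean log2 input (right) of each array, relative to the array median, over the upstream flank, the pcs2 coding part, the gap, the hsr1 coding part and the downstream flank; points are arrays, with rad3-deleted left of cdc25-22, and bars are the mean ± SD (n = 3). In the gap the ratio means are 1.87 and 0.07 for rad3-deleted and cdc25-22, and the input means are 0.58 and 0.11.

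Within the gap the ratio was high throughout. Its 29 probes differed by 0.83 to 2.52 between the strains, with a median of 1.81, and 27 differed by 1 or more. The part between the mRNAs (21 probes) differed by 1.86, the 5′ untranslated part of hsr1 by 1.80 and the 3′ untranslated part of pcs2 (2 probes) by 1.14. Of the 9 noncoding RNA genes inside the gap, 8 carried at least 2 probes, and their differences were 1.49 to 2.19. SPNCRNA.783, which lies on the minus strand across the start of the hsr1 transcript, averaged 1.96, 2.09 and 2.30 in rad3-deleted, against -0.11, 0.26 and -0.36 in cdc25-22. SPNCRNA.777, on the minus strand with its 3′ end inside the 3′ untranslated part of pcs2, averaged 1.27, 1.53 and 2.18 in rad3-deleted, against 0.14, 0.03 and 0.04 in cdc25-22. Neither gene showed overlap between the strains. These are ratios of Rad52 immunoprecipitate over input DNA, and no RNA was measured here.

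The spread of the 3 rad3-deleted arrays varied along the plateau, with an SD over arrays of 0.07 to 0.59 in the 9 bins of the run. In the 1 kb bin from 1955001 to 1956000, replicates 1, 2 and 3 stood at 2.01, 2.21 and 2.93, and in the bin from 1957001 to 1958000 at 1.89, 2.02 and 1.99. In the bin from 1951001 to 1952000, on the left slope, they stood at 0.81, 1.28 and 1.64. In the first bin, over pcs2, they stood at 0.70, 1.01 and 0.86, and in the last bin at 1.39, 2.10 and 2.04. Replicate 3 was the highest in the bins from 1951001 to 1957000 and lay between the others in the first bin and in the last pair. The array-wide spread of the log2 ratio was also largest on that array, with an SD over probes of 0.45, 0.55 and 0.67 in rad3-deleted replicates 1, 2 and 3, against 0.27, 0.43 and 0.45 in cdc25-22 replicates 1, 2 and 3. Dividing each array by its own spread brought the difference of the run to 1.44.

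The locus was also set beside all bins of the genome. In 1 kb bins, limma called 1407 of 11893 bins higher and 409 lower in rad3-deleted at a Benjamini-Hochberg threshold of 0.05, so the background of higher calls is 11.8%. With quantile normalization 1220 were higher and 630 lower, and with the files as listed 0 and 0. All 9 bins of the run that chose the locus were among the higher calls, which the choice fixes. The bin just before the run, at the start of pcs2, had a difference of 0.53 and was called as well, and the first bin inside had 0.82. The last bin inside had 1.81 and the bin just after it, in hsr1, 0.23 and no call. In the 33 bins of the window 11 were called, of which 1 was the outermost bin on the left, between mdm31 and ste24, with a difference of 0.83. With that preceding bin the called stretch was 10 bins long, with a mean difference of 1.62. Among 532 runs of neighbouring called bins, 12 had 10 or more bins, this stretch included, and 2 of those had a higher mean difference. That standing rests on the values that chose the locus and is a description only.

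Both channels were higher in rad3-deleted arrays over the run, the immunoprecipitate by more than the input. Over the 32 probes of the run the immunoprecipitate stood at 1.94, 2.30 and 2.53 in rad3-deleted, against 0.03, 0.38 and -0.10 in cdc25-22, as log2 signal relative to the array median. Input stood at 0.51, 0.59 and 0.45 in rad3-deleted, against -0.02, 0.24 and -0.05 in cdc25-22. Neither channel overlapped between the strains. The differences were 2.16 for the immunoprecipitate and 0.46, or 1.38-fold, for the input. A higher input lowers the ratio, so the ratio difference of 1.70 was smaller than that of the immunoprecipitate alone.

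**Figure D3:**
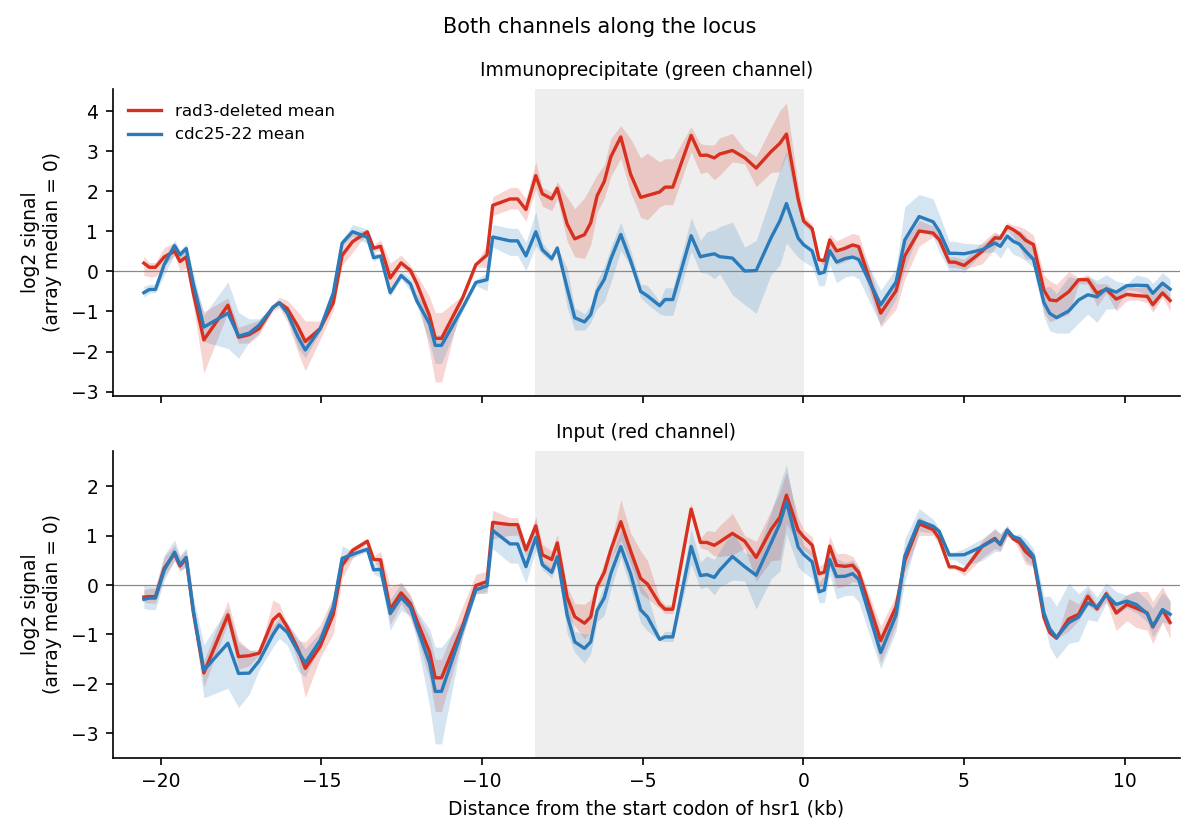
Running mean (probes within 500 bp) of log2 immunoprecipitate signal (top) and log2 input signal (bottom), relative to the array median, against distance from the hsr1 start codon in kb; lines are strain means, bands span the lowest and highest of 3 arrays, and the gap is shaded. Over the run the immunoprecipitate differs by 2.16 and the input by 0.46, rad3-deleted minus cdc25-22.

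The higher input had no sharp edge at the hsr1 start codon. The input difference was 0.34 over pcs2 coding, 0.47 over the gap and 0.28 over hsr1 coding, against 0.10 in the upstream flank (37 probes) and -0.04 in the downstream flank (32 probes). Inside the gap the input difference was uneven. It was 0.55 between the mRNAs (21 probes), without overlap of the strains. Over the 5′ untranslated part of hsr1 (6 probes) it was 0.27, and over the 3′ untranslated part of pcs2 (2 probes) 0.18, both with overlap. In the gap input was 0.57, 0.66 and 0.51 in rad3-deleted and 0.04, 0.29 and 0.01 in cdc25-22, without overlap. In hsr1 coding it was 0.01, 0.46 and 0.45 in rad3-deleted and -0.28, 0.10 and 0.26 in cdc25-22, with overlap. Of the 29 gap probes, 11 had higher input in rad3-deleted without overlap, against 2.13% of all probes. Over all 11893 bins limma called input higher in 1, a background of 0.00841%, and lower in 0, with 281 bins at an unadjusted p under 0.05. On simulated data this fit recovered no input shift of about the mean size seen in the run, so calls of input are not read for the run. Input differences of the 9 bins were 0.13 to 0.67 and ranked 79 to 2385 of the 11893. Whether the input has a part in the ratio beyond this arithmetic was not tested.

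The other 11 protein-coding genes that overlap the window gave no call. Over all genes, limma called 437 of 4124 higher and 216 lower in rad3-deleted, which are backgrounds of 10.6% and 5.24%, and 356 and 305 with quantile normalization. In the window 2 of 13 were called higher, pcs2 and hsr1, which their choice fixes, and 0 lower. On the left, the vacuolar amino acid transporter gene avt3 stood at 0.34, 0.08 and 0.47 in rad3-deleted and 0.29, 0.44 and -0.17 in cdc25-22. On the right, snt2, which encodes a subunit of the Lid2 chromatin complex, stood at -0.16, -0.08 and -0.06 in rad3-deleted and 0.01, 0.33 and -0.10 in cdc25-22. The strains overlapped at both neighbours. Differences of the arginase gene aru1, the protease gene ste24, the kinase gene ppk13 and wis4, a kinase gene of the stress pathway, were -0.12, 0.05, 0.28 and -0.20. Among the neighbours with 2 or more probes in the window the largest difference was 0.45, at gid4, a gene of the glucose-induced degradation complex. Over the 69 probes outside the gap and both coding parts, the ratio was 0.05, 0.01 and 0.14 in rad3-deleted and 0.03, 0.07 and -0.08 in cdc25-22.

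The gap between pcs2 and hsr1 is long for this genome. It ranked 6th in length among 5117 gaps between neighbouring coding parts, whose median length is 685 bp. By ratio difference, on which the locus was chosen, it ranked 11th of the 2921 gaps with at least 2 probes. Among the other measured gaps the median difference was -0.02 for 1558 gaps under 1 kb, 0.10 for 985 of 1 to 2 kb, 0.30 for 316 of 2 to 4 kb, 0.53 for 48 of 4 to 6 kb and 0.73 for 13 of 6 kb and over. Longer gaps had higher medians, and in the longest class 4 of 13 differed by 1 or more. Across the 2920 other gaps Spearman's rho of length and difference was 0.297, given as a description because gaps share arrays and neighbours. Median input differences in the same classes were -0.03, 0.00, 0.00, 0.05 and 0.07, against 0.47 in the gap of this locus. In the 4 gaps of the longest class with a ratio difference of 1 or more, input differed by 0.68, 0.52, 0.34 and 0.07. An input difference of this size was thus not particular to this gap. The length classes were chosen after the values had been seen.

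**Figure D4:**
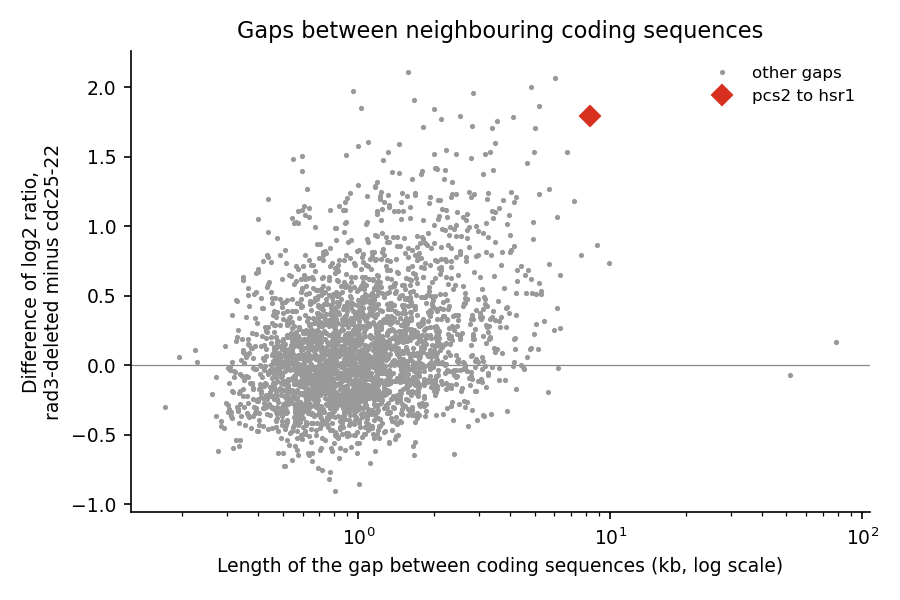
Difference of the mean log2 ratio, rad3-deleted minus cdc25-22, against the length of each gap between neighbouring coding parts in kb on a log scale; grey points are the 2920 other gaps with at least 2 probes and the diamond is the gap between pcs2 and hsr1. The diamond stands at 8.31 kb and 1.80, above the median of 0.73 of the other gaps of 6 kb and over.

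The gap was less A+T-rich than most gaps, and most gaps are shorter. It was 66.6% A+T, and 84.9% of the other measured gaps had as much or more, with a median of 69.1%. Median A+T fell with length, from 69.6% in gaps under 1 kb to 65.9% in the others of 6 kb and over. The gap thus stood slightly above the median of its own length class. Its most A+T-rich 500 bp window, from 1953351 to 1953850, held 76.6% A+T, a share that 0.308% of all such windows in the genome reach. It was the highest of 157 overlapping windows in the gap, taken every 50 bp. The genome share therefore does not say how rare such a highest window is. Of the 157 windows 3 reached 75%, against 0.793% of all such windows in the genome. With the trend of the ratio on A+T removed from each array, the run difference was 1.64. The nearest transfer RNA gene was 179 kb from the gap, the nearest ribosomal RNA gene 387 kb and the nearest long terminal repeat 40.3 kb.

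The table's column for cdc25-22 replicate 3, which equals no scanner file, carried a lower signal in the same gap. Its mean over the gap was 0.51, against 0.08, 0.19 and -0.06 in the scanner files of cdc25-22. Its running mean reached 1.28 at 1953629, inside the most A+T-rich window, was 0.50 at 1954460 and stood at 1.06 at 1955005, the summit of the rad3-deleted arrays. It was 0.90 at 1955818 and 1.03 at 1956107. At 1953629 the running means of the rad3-deleted arrays were 1.64, 1.89 and 2.76, all above the column. In place of the scanner file, this column gave a run difference of 1.54. Over the 40086 probes its Pearson correlation was 0.35, 0.36 and 0.51 with rad3-deleted replicates 1, 2 and 3, against 0.22, 0.14 and 0.39 with cdc25-22 replicates 1, 2 and 3. It was thus most like the arrays of slide 3, and among arrays of the same slide more like rad3-deleted. These correlations are a description across probes of shared arrays, and the column's rad3 probes were not seen by channel. Whether the column or the file belongs to cdc25-22 replicate 3, and which strain the column shows, cannot be told from these files.

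**Figure D5:**
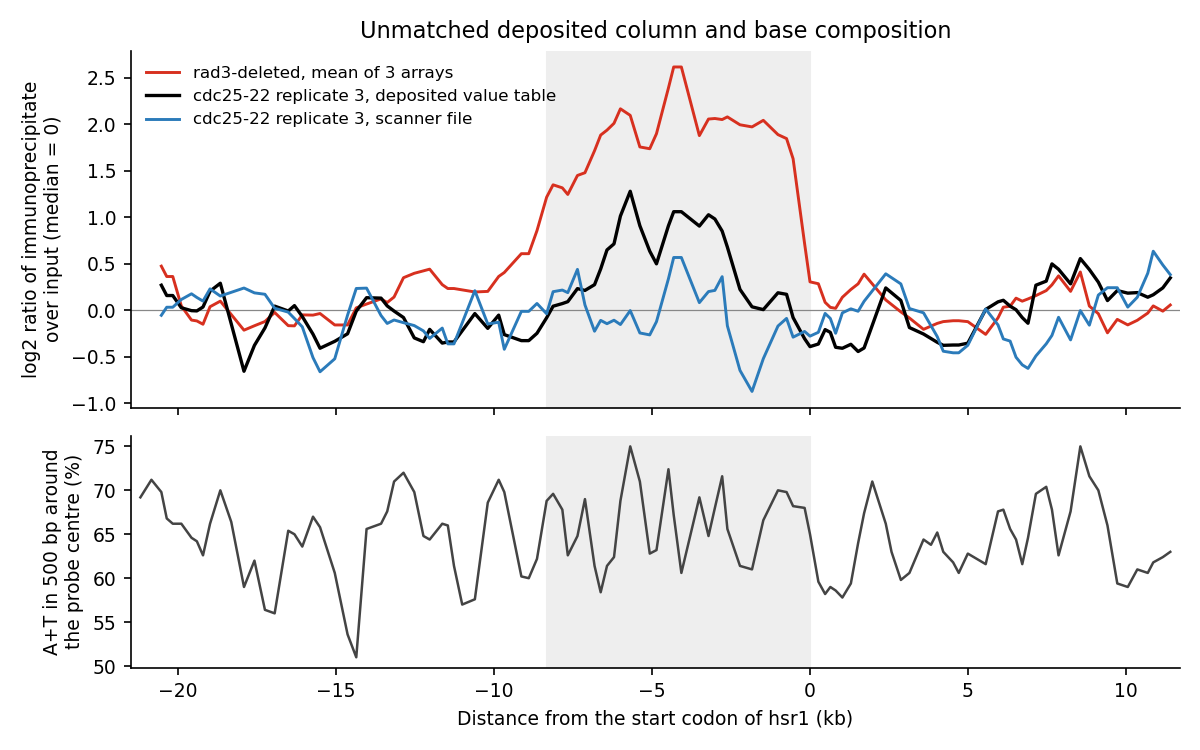
Top, running mean (probes within 500 bp) of the log2 ratio of immunoprecipitate over input for the mean of 3 rad3-deleted arrays, for the deposited column of cdc25-22 replicate 3 and for the scanner file of that sample, against distance from the hsr1 start codon in kb. Bottom, A+T percent in 500 bp around each probe centre; the gap is shaded, and the deposited column peaks at 1.28 where the A+T percent is 75.

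Genes whose ratio was most like that of the members over the 6 arrays were found by the smallest root mean square difference among genes outside the window. For pcs2 these were fap2 (SPAC139.04C), an L-saccharopine oxidase gene, at 0.08 log2, rpl3602, a ribosomal protein gene, at 0.10, and fep1, an iron-sensing transcription factor gene, at 0.10. For hsr1 they were the ammonium transporter gene amt1 at 0.13, the respiratory chain gene qcr6 at 0.14 and rds1 at 0.14. The gene fap2 stood at 0.79, 1.002 and 1.07 in rad3-deleted and -0.07, 0.07 and -0.12 in cdc25-22. Likeness was measured over the arrays that chose the members, so these genes share the pattern by selection.

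Other genes of stress and metal response were set beside the members. Both lists were chosen with earlier results of these data known, so their counts and calls are a description only. Of 17 regulators of oxidative and metal stress, 13 were measured, 4 were higher in rad3-deleted and 0 lower, with a median difference of 0.06 against -0.06 over all genes. Without hsr1, which was selected on the ratio, 3 of 12 were higher. The 4 were hsr1 itself, the copper-sensing factor gene cuf1 (1.31 ± 0.12 SE), fep1 (1.07 ± 0.12 SE) and the glucose repressor gene scr1 (0.93 ± 0.14 SE). Like hsr1, fep1 and scr1 border long gaps between coding parts. The gap from mre11 to fep1 (5199 bp) differed by 1.87 and that from clg1 to scr1 (6162 bp) by 1.07. The fep1 gene starts at 442221, inside its gap, which ends at 443568. Coding parts of these genes were not taken apart from the gaps, unlike those of hsr1. Limma's adjusted p for cuf1 was 0.000282, and cuf1 stood at 1.12, 1.19 and 1.43 in rad3-deleted and -0.01, -0.18 and 0.00 in cdc25-22. Pathway partners of hsr1 gave no call, with differences of 0.13 at pap1, another peroxide-response factor gene, -0.09 at atf1 and 0.24 at the stress kinase gene sty1.

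Of 18 genes of phytochelatin and heavy metal handling, 14 were measured, 3 were higher in rad3-deleted and 2 lower, with a median difference of 0.02. Without pcs2, likewise selected, 2 of 13 were higher. The 3 were pcs2, the zinc transporter gene zhf1 (0.50 ± 0.12 SE) and the vacuolar copper transporter gene ctr6 (0.67 ± 0.15 SE). The 2 lower were hmt1, the vacuolar transporter gene of phytochelatins (-0.36 ± 0.11 SE), and the copper transporter gene ctr4 (-0.69 ± 0.14 SE). The glutathione synthesis gene gcs1, which supplies the substrate of pcs2, differed by -0.12 with no call. Without rad3-deleted replicate 2 or cdc25-22 replicate 1 neither zhf1 nor ctr6 was called, and zhf1 also lost its call without rad3-deleted replicate 3 or cdc25-22 replicate 2. The call at hmt1 was lost in 11 of 13 alternatives that keep the placement of the files, with limma's adjusted p at 0.0398 to 0.348 over them. Shares of called genes in both lists are small counts. They are given beside the 10.6% and 5.24% of all genes as a description, because the lists were not chosen blind to these data.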

How the data were processed

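Scanner files came from Agilent Feature Extraction 10.7.3.1, per the file headers, with a CGH protocol on slides 1 and 2 and a ChIP protocol on slide 3. The processed signals are spot intensity values, background-subtracted and dye-corrected with a linear term by the authors, per the file headers. The deposited log10 ratio is red over green and was used only as a check. Values in the deposited table were on a linear scale, a ratio of green over red, as set against the scanner files. The labels describe the material as RNA in some fields and as input and IP fractions in others, and name reciprocal labelling that no file shows.

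The log2 ratio of green over red processed signal was centred on each array's median over the 40086 nuclear probes with no outlier mark on any array (2555 were left out). No probe of the locus was saturated (0), and 21 were not well above background on some array. Probes were averaged in 1 kb bins and in genes with at least 2 probes; bins leave out probes closer than 1 kb to rad3. Limma 3.58.1 (R 4.3.3) fitted 1 mean per strain with Benjamini-Hochberg adjustment, and the fit was tested on simulated data. Summit and width used a running mean over probes within 500 bp in Python 3.11.15. Precision is limited by 3 arrays per strain; median signals were 580 to 1211 in the immunoprecipitate and 560.5 to 845 in the input.

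Replicate numbers are slides. Deviations from the strain mean correlated at 0.28, 0.20 and 0.18 for arrays of the same slide, so the numbers pair the samples. The main fit left this pairing out, and the fit with the slide as a block is given as an alternative. With that block, 959 bins had input at an unadjusted limma p under 0.05, in place of 281. Alternatives were the listed file names, the value table, other scalings, background corrections, probe filters, bin sizes, smoothing, the slide as a block and leaving out each array. The genes named are all genes of the window, the 3 most like each member and 2 gene lists. Members and lists were chosen with earlier results of these data known.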

Additional observations from a re-analysis of the deposited data

Results flagged for a closer look

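The deposited value table's column for cdc25-22 replicate 3 was left out of the main comparison and fitted only in the alternative with the deposited values. It held a signal at the locus above that of the cdc25-22 arrays. Its mean log2 ratio over the 32 probes of the run was 0.46 (0.4583), against 0.08, 0.15 and -0.02 in the scanner files of cdc25-22 replicates 1, 2 and 3. The rad3-deleted arrays stood at 1.47, 1.70 and 2.14. No scanner file equalled the column, so its 2 channels and its rad3 probes were not seen.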

How the results depend on the processing

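Placing the files as listed turned the sign of 5 differences at the locus: the run ratio to -0.26, pcs2 to -0.22, hsr1 to -0.12, the input of the run to -0.13 and its immunoprecipitate to -0.40. It gave 0 called bins and genes in either direction, 0 input bins, a summit height of 1.301 at an unmoved position and a width of 5.15 kb. The deposited values gave 914 bins higher and 80 lower, and 282 genes higher and 46 lower. Scaling brought the run ratio to 1.44 (one MAD) and 1.32 (quantile), and pcs2 to 0.74 (quantile), with 630 bins lower. Replicate 3 of each strain alone gave 2.16 for the run, 0.95 for hsr1 and 2.63 for the immunoprecipitate. With the replicate block 1689 bins were higher and 796 lower, in place of 1407 and 409, and 3 bins had higher input. Genes were then 458 higher and 292 lower, in place of 437 and 216. Calls at the locus are fixed by its choice and are not read here. Input bins called higher were 2 with normexp, 0 in 500 bp bins and 0 in 2 kb bins, and 252 bins were lower in 500 bp bins. Leaving out 1 array gave 979 to 1720 bins higher and 101 to 857 lower, 224 to 531 genes higher and 29 to 416 lower, and 0 to 0 input bins. It gave a run ratio of 1.51 to 1.85 and a width of 6.83 to 7.80 kb, the widest without rad3-deleted replicate 1. The lowest count of lower bins came without cdc25-22 replicate 1, and genes called higher were 224, 288 and 239 without rad3-deleted replicate 2, rad3-deleted replicate 3 and cdc25-22 replicate 1. The width was 6.09 kb without dim probes, 1.001 kb and 7.60 kb with smoothing over 250 and 1000 bp, and 8.97 kb at a level of 0.5 log2. Those smoothings put the summit at 1954839 and 1955818. The causes of these changes were not tested.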
